A study of Homo sapiens with 6 samples.

Results

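The genes described here encode the enzymes that modify nucleotides of transfer RNA (tRNA). They are 58 genes chosen by name, taken as the rows of the deposited table that carry one of the 58 symbols, out of 19669 named genes, and each symbol was found on a single row. Levels of mRNA (RNA-seq) and of ribosome footprints, the stretches of mRNA that a translating ribosome shields from digestion (Ribo-seq), were available for the VHL-deficient kidney cancer line 786-O. Its cells carried 1 of 3 labels, EV for empty vector, WT or MT, with a single library for each label in each assay and 6 libraries in all, and no other agent or allele is named. The series title gives WT as PHYHD1-WT and MT as a PHYHD1 form lacking 107 to 130, whereas in the design text MT stands for PHYHD1 overexpression and WT for cells left untreated, although the deposited columns are named PHYHD1-WT and PHYHD1-MT. The promoter behind PHYHD1, and whether the cells were clones or pools, are not given. The design text names 3 dishes per condition, but each label has 1 column per assay, so no difference below has a replicate check and each is between libraries, not conditions. PHYHD1, a member of the iron- and 2-oxoglutarate-dependent dioxygenase family, stood at 0.0920, 118 and 109.5 FPKM and at 0, 222 and 905 TPM in EV, WT and MT, so the library labelled WT goes against a reading of that group as cells with endogenous PHYHD1 alone. WT and MT below mean the libraries so labelled.

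Transfer RNAs carry more modified nucleotides than any other RNA class. Modifications in and beside the anticodon affect decoding and reading frame, and those in the body of the molecule affect its folding and stability. Cytosolic and mitochondrial tRNAs are modified by partly separate enzymes, all of them encoded in the nucleus, and several enzymes work only as a pair of a catalytic and a partner subunit. Loss of several of these enzymes causes inherited disease, and METTL1 and NSUN2 are often found at high levels in tumours.

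All values below are in the order EV, WT, MT unless stated. RNA-seq values are read as FPKM and Ribo-seq values as TPM, units that scale to length, and levels are compared between genes on that reading. Which length was used for each gene is not given. Comparisons between genes depend on it, as do ratios of footprints to mRNA. Read totals are unknown. The median value of genes seen in just 1 library of an assay, where few reads are likely, was 0.041 FPKM or 0.125 TPM. A value of a few units lies above both, more so in RNA-seq. How many reads it stands for is unknown, and low values may still rest on few. Genes that reached 1 unit in either library of a comparison were entered, on log2(value + 1), which makes differences of low genes look smaller. A gene is called past 2-fold at an absolute log2 ratio of 1 or more. A smaller rule, a log2 ratio at least 0.32 from 0 (a ratio of 5 to 4), is given beside it, and "at least 0.32 higher" or "lower" below refers to this scale. Both are rules of size, not tests. As a measure of scatter between libraries, the span that held 95% of genes with a mean of 5 to 50 units is also given. It mixes real differences with error and was chosen after the values were seen. Markers of renal carcinoma cells summed to between 2120 and 2271 FPKM over 9 genes, most of it from VIM (1745.8, 1911.0 and 1750.7 FPKM), which mesenchymal cells of other tissues also express. PAX8, a renal lineage factor, stood at 88.5, 75.9 and 93.98 FPKM, and CA9 was listed at 0. The 9 markers of leukocytes, endothelium, hepatocytes, fibroblasts and other epithelia summed to between 0.638 and 1.69 FPKM, 6 of them listed at 0 in all 3 RNA-seq libraries.

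The 58 mRNAs were all detected and mostly of moderate abundance. They ranged from 1.08 to 67.3 FPKM in EV, with a median of 8.29 FPKM, beside medians of 8.65 for WT and 7.67 for MT, against a median of 13.2 FPKM over the 10897 genes at 1 FPKM or more in that library. In Ribo-seq the range in EV was 1.53 to 768 TPM and the median 10.3 TPM (10.8 in WT and 11.3 in MT), and the single value under 1 TPM was that of ADAT3 in WT. TRMT112 and NSUN2 stood far above the rest in both assays. Ranked by mean mRNA level, DUS1L, TYW3, FTSJ1, TRMT1, METTL2B and TRUB1 followed them. By mean Ribo-seq value TRUB1, TRMT1, TRUB2, YRDC, FTSJ1 and METTL1 followed. ADAT2, ADAT3 and TRMT12 had the lowest mean mRNA levels. Summed over the 58 genes, the mRNA values made up 0.135%, 0.152% and 0.139% of the library. The shares for Ribo-seq were 0.171%, 0.173% and 0.188%, of which TRMT112 alone gave 44.9% to 47.0%, and without it they were 0.0941%, 0.093% and 0.0996%.

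**Figure D1:**
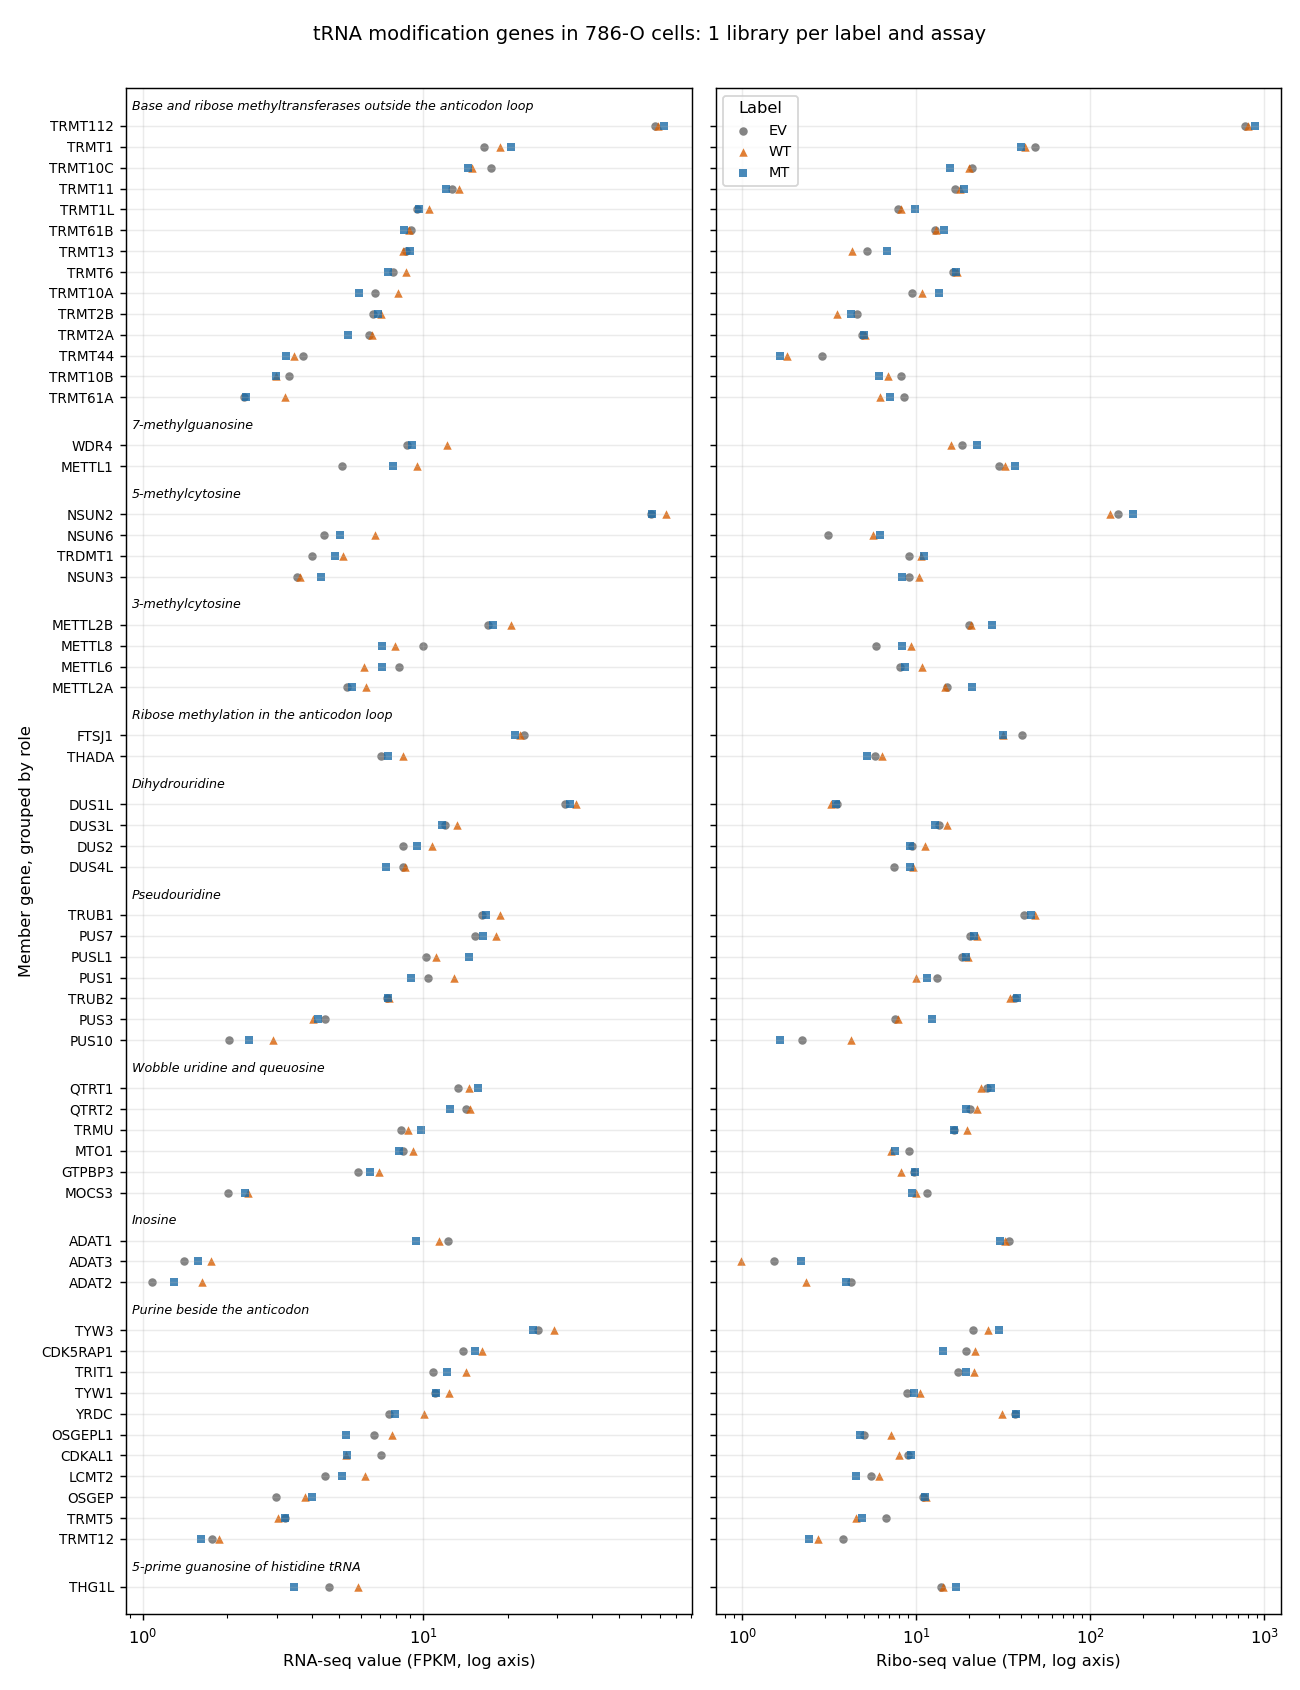
RNA-seq values (left, FPKM) and Ribo-seq values (right, TPM) of the 58 genes on log axes, grouped by role and ordered by mean mRNA level, with 1 point per library (circle EV, triangle WT, square MT). The WT triangle is the rightmost mRNA point for 39 of 58 genes, while no label leads in the same way in Ribo-seq.

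Among methyltransferases that act outside the anticodon loop, TRMT112, the small activating subunit shared by TRMT11 and other methyltransferases, stood at 67.3, 69.01 and 72.1 FPKM and 768, 804 and 883 TPM. TRMT11, its catalytic partner for a guanosine near the D arm, stood at 12.6, 13.5 and 12.1 FPKM and 16.6, 17.9 and 18.9 TPM. The activator was thus more abundant than this partner in every library, by 5.32 times in EV mRNA and 46.3 times in EV footprints. TRMT6 and TRMT61A form the enzyme that methylates an adenosine of the T loop, TRMT61A being the catalytic subunit. TRMT6 stood at 7.81, 8.67 and 7.51 FPKM and 16.4, 17.1 and 16.8 TPM. TRMT61A stood at 2.29, 3.22 and 2.33 FPKM and 8.51, 6.22 and 7.11 TPM. TRMT6 was the more abundant in all 6 libraries, and TRMT61A was highest in mRNA in WT, where its footprints were lowest. TRMT1, which dimethylates a guanosine between the D and anticodon arms, stood at 16.5, 18.8 and 20.6 FPKM and 48, 41.9 and 39.8 TPM, with EV lowest in mRNA and highest in footprints. Its paralog TRMT1L stood at 9.52, 10.5 and 9.67 FPKM and 7.83, 8.20 and 9.86 TPM.

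TRMT10A, the cytosolic guanosine methyltransferase whose loss causes microcephaly with diabetes, stood at 6.71, 8.10 and 5.90 FPKM and 9.50, 10.8 and 13.5 TPM. Its MT library was lowest in mRNA and highest in footprints. Its paralog TRMT10B was at 3.33, 2.99 and 2.98 FPKM and 8.18, 6.92 and 6.09 TPM, highest in EV in both assays. TRMT10C, a subunit of mitochondrial RNase P, was at 17.5, 14.9 and 14.4 FPKM and 20.9, 20.1 and 15.7 TPM, likewise highest in EV and lowest in MT in both assays. TRMT2A and TRMT2B, which methylate uridines in cytosolic and mitochondrial RNA, had 6.40, 6.58 and 5.38 FPKM and 6.61, 7.05 and 6.87 FPKM, with 4.91, 5.07 and 4.99 TPM and 4.57, 3.50 and 4.20 TPM. TRMT61B, the mitochondrial counterpart of TRMT61A, was at 9.03, 8.87 and 8.53 FPKM and 12.8, 12.9 and 14.5 TPM. The ribose methyltransferase gene TRMT13 was at 8.66, 8.50 and 8.97 FPKM and 5.22, 4.25 and 6.79 TPM. TRMT44, the predicted uridine ribose methyltransferase, was at 3.72, 3.47 and 3.23 FPKM and 2.87, 1.81 and 1.66 TPM. Its footprint values, among the lower ones, may rest on few reads. THG1L adds the extra guanosine at the start of histidine tRNA. Its mRNA spread widely, at 4.61, 5.88 and 3.47 FPKM, and its footprints stood at 13.8, 14.2 and 16.9 TPM.

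METTL1 and WDR4 form the enzyme that methylates a guanosine in the variable loop, with METTL1 as the catalytic and WDR4 as the supporting subunit. METTL1 mRNA stood at 5.13, 9.54 and 7.84 FPKM, the widest spread of the 58 mRNAs (a ratio of 1.86 between highest and lowest library, against a median of 1.19 over the 58). WDR4 mRNA stood at 8.72, 12.2 and 9.09 FPKM. Both were highest in WT and lowest in EV. The footprints did not follow that order, at 29.9, 32.4 and 36.7 TPM for METTL1 and 18.2, 15.9 and 22.2 TPM for WDR4, with MT highest for both and WDR4 lowest in WT.

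NSUN2, which methylates cytosines in many cytosolic tRNAs, stood at 65.3, 73.5 and 65.6 FPKM and 145, 129 and 176 TPM. WT was highest in mRNA and lowest in footprints. NSUN6, which acts on the acceptor stem of a few tRNAs, was at 4.42, 6.72 and 5.05 FPKM and 3.10, 5.66 and 6.22 TPM, with EV lowest in both assays. NSUN3, which acts on the anticodon of mitochondrial methionine tRNA, was at 3.54, 3.65 and 4.32 FPKM and 9.03, 10.3 and 8.25 TPM. TRDMT1, also called DNMT2, was at 4.02, 5.17 and 4.84 FPKM and 9.12, 10.6 and 11.1 TPM, with EV lowest in both assays.

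METTL2A, METTL2B, METTL6 and METTL8 methylate cytosines of the anticodon loop, METTL8 in mitochondria. METTL2A and METTL2B are close copies, and how reads were shared between them is not given, so their split is uncertain. METTL2A stood at 5.37, 6.24 and 5.58 FPKM and 15.1, 14.7 and 20.96 TPM, and METTL2B at 16.99, 20.6 and 17.7 FPKM and 20.04, 20.6 and 27.2 TPM. Both had their highest mRNA in WT and their highest footprints in MT. METTL6 and METTL8 had EV highest in mRNA (8.22, 6.15 and 7.13 FPKM, and 9.997, 7.94 and 7.13 FPKM) and lowest in footprints (8.06, 10.8 and 8.63 TPM, and 5.90, 9.30 and 8.23 TPM). FTSJ1 and THADA act in ribose methylation of the anticodon loop, and loss of FTSJ1 causes X-linked intellectual disability. FTSJ1 was at 22.99, 22.2 and 21.2 FPKM and 40.6, 31.3 and 31.7 TPM, with EV highest in both assays, and THADA at 7.05, 8.45 and 7.49 FPKM and 5.80, 6.38 and 5.23 TPM.

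The dihydrouridine synthases reduce uridines, mainly in the D loop. DUS1L mRNA was the third most abundant of the 58, at 32.2, 35.1 and 33.3 FPKM, yet its footprints stood at 3.50, 3.23 and 3.47 TPM, among the lowest. DUS2 was at 8.44, 10.7 and 9.51 FPKM and 9.42, 11.2 and 9.22 TPM, and DUS3L at 11.99, 13.2 and 11.7 FPKM and 13.4, 15.1 and 12.9 TPM. DUS4L, which overlaps a readthrough gene that joins it to BCAP29, was at 8.50, 8.64 and 7.38 FPKM and 7.46, 9.58 and 9.15 TPM. All 4 mRNAs were highest in WT.

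Of the pseudouridine synthases, TRUB1 was the most abundant, at 16.3, 18.7 and 16.8 FPKM and 41.6, 47.8 and 45.7 TPM, with WT highest in both assays. TRUB2, its mitochondrial relative, had the narrowest mRNA spread of the 58, at 7.44, 7.53 and 7.46 FPKM, and stood at 36.9, 34.4 and 37.9 TPM. PUS7 was at 15.3, 18.2 and 16.4 FPKM and 20.5, 22.2 and 21.4 TPM, again with WT highest in both. PUS1, which works in nucleus and mitochondria and whose loss causes myopathy with sideroblastic anaemia, was at 10.4, 12.9 and 9.07 FPKM and 13.1, 9.95 and 11.5 TPM, so WT was highest in mRNA and lowest in footprints. PUSL1 mRNA was at 10.3, 11.2 and 14.6 FPKM, highest in MT, with footprints at 18.4, 19.7 and 19.3 TPM, and it overlaps INTS11. PUS3 was at 4.45, 4.04 and 4.23 FPKM and 7.58, 7.87 and 12.3 TPM, with the MT footprints apart from the other 2. PUS10 was at 2.03, 2.91 and 2.38 FPKM and 2.22, 4.24 and 1.65 TPM, the widest footprint spread of the 58 (a ratio of 2.57, against a median of 1.26), at a level of a few TPM.

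QTRT1 and QTRT2 together insert the queuosine precursor at the wobble position. QTRT1 was at 13.4, 14.6 and 15.7 FPKM and 25.6, 23.7 and 26.9 TPM, and QTRT2 at 14.2, 14.7 and 12.5 FPKM and 20.4, 22.2 and 19.3 TPM. Their mRNAs were at near-equal levels, with a QTRT1 to QTRT2 ratio of 0.940 in EV, 0.996 in WT and 1.26 in MT. GTPBP3 and MTO1 add the taurine group to wobble uridines in mitochondria and TRMU adds sulfur there. GTPBP3 was at 5.87, 6.98 and 6.45 FPKM and 9.70, 8.13 and 9.80 TPM. MTO1 was at 8.48, 9.23 and 8.20 FPKM and 9.07, 7.20 and 7.57 TPM. TRMU was at 8.36, 8.80 and 9.81 FPKM and 16.5, 19.5 and 16.5 TPM. The mRNAs of GTPBP3 and MTO1 were highest in WT, where their footprints were lowest. MOCS3, which activates the sulfur carrier for cytosolic wobble uridines, was at 2.01, 2.37 and 2.32 FPKM and 11.6, 9.96 and 9.45 TPM.

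The adenosine deaminases ADAT2 (catalytic) and ADAT3 make wobble inosine together and were the least abundant pair. ADAT2 stood at 1.08, 1.63 and 1.29 FPKM and 4.20, 2.33 and 3.96 TPM. ADAT3, which lies within SCAMP4, stood at 1.40, 1.75 and 1.58 FPKM and 1.53, 0.988 and 2.17 TPM. Both mRNAs were highest in WT and both footprint values lowest there, at levels of a few units. ADAT1, which deaminates an adenosine of alanine tRNA, was at 12.3, 11.4 and 9.44 FPKM and 33.9, 32.1 and 30.2 TPM, highest in EV in both assays.

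Of the 11 genes that act on the purine beside the anticodon, YRDC and OSGEP make threonylcarbamoyl adenosine in the cytosol and OSGEPL1 in mitochondria. YRDC was at 7.55, 10.1 and 7.93 FPKM and 37.05, 31.2 and 37.3 TPM, OSGEP at 2.997, 3.77 and 4.001 FPKM and 10.9, 11.4 and 11.2 TPM, and OSGEPL1 at 6.70, 7.76 and 5.30 FPKM and 5.03, 7.21 and 4.74 TPM. YRDC mRNA was highest in WT, where its footprints were lowest. OSGEPL1 was highest in WT in both assays. TRIT1, which adds an isopentenyl group, was at 10.9, 14.2 and 12.2 FPKM and 17.3, 21.4 and 19.2 TPM, with the same order in both assays from EV through MT to WT. CDK5RAP1, which extends that modification in mitochondria, was at 13.9, 16.2 and 15.3 FPKM and 19.4, 21.8 and 14.2 TPM. CDKAL1, a related enzyme of cytosolic lysine tRNA and a type 2 diabetes risk gene, was at 7.06, 5.29 and 5.33 FPKM and 9.01, 7.95 and 9.30 TPM, highest in EV in mRNA.

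The remaining 5 of these build wybutosine, a tricyclic base of phenylalanine tRNA, in the order TRMT5, TYW1, TRMT12, TYW3 and LCMT2. TRMT5 was at 3.21, 3.03 and 3.23 FPKM and 6.68, 4.51 and 4.87 TPM, and TYW1 at 11.1, 12.3 and 11.1 FPKM and 8.89, 10.6 and 9.73 TPM. TRMT12 was at 1.76, 1.86 and 1.61 FPKM and 3.77, 2.73 and 2.41 TPM. TYW3 was at 25.8, 29.3 and 24.7 FPKM and 21.2, 25.8 and 29.8 TPM, and LCMT2 at 4.46, 6.21 and 5.14 FPKM and 5.53, 6.12 and 4.53 TPM. TYW3 was the most abundant of the pathway in every library and assay and TRMT12 the least. The first enzyme, TRMT5, had its lowest value in WT in both assays, whereas the other 4 had their highest mRNA there.

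**Figure D2:**
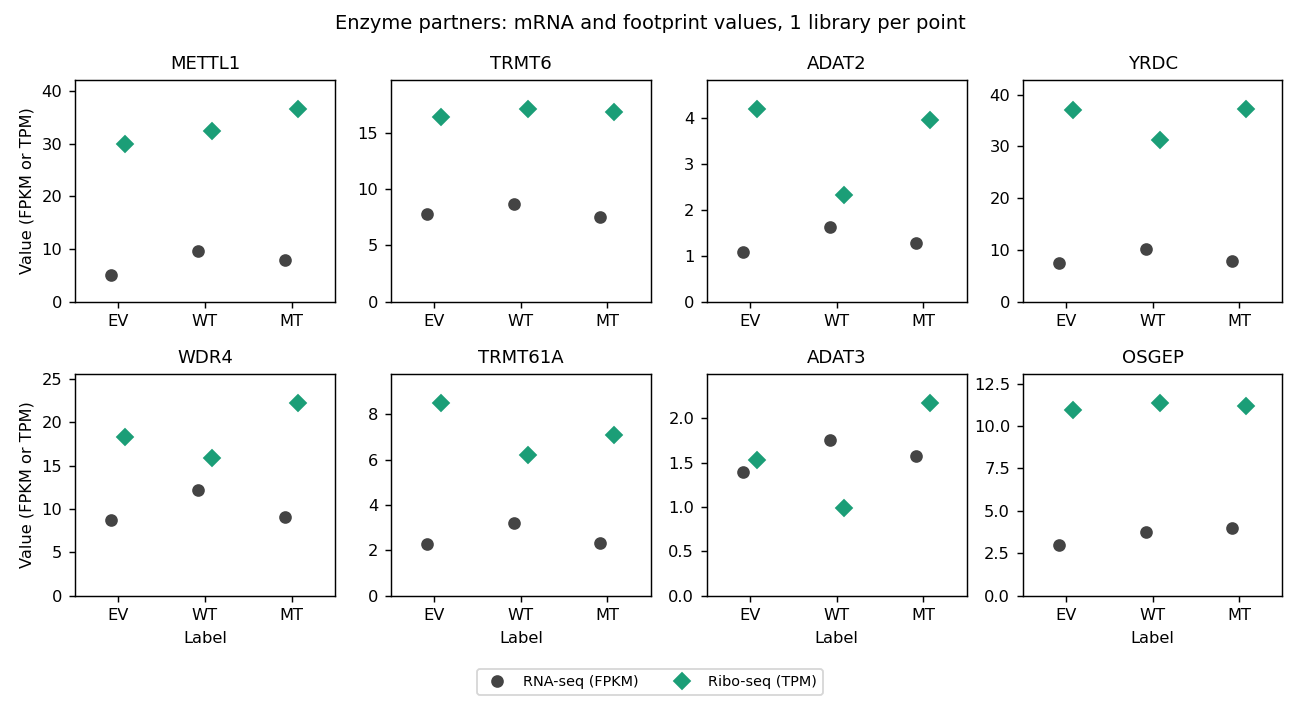
RNA-seq (circles, FPKM) and Ribo-seq values (diamonds, TPM) of enzyme partners and of YRDC and OSGEP in the 3 labels, on linear axes from 0 with 1 library per point. For METTL1, WDR4, TRMT6, TRMT61A, ADAT2, ADAT3 and YRDC the WT mRNA point is the highest of the 3. For WDR4, TRMT61A, ADAT2, ADAT3 and YRDC the WT footprint point is the lowest, and for TRMT6 it is the highest. Over all 58 genes the WT footprint value was lowest for 18, against 33.6% of all genes, and highest for 21, against 38.3%.

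Comparing WT with EV asks how these mRNAs differed where PHYHD1 mRNA was high. Small differences upward prevailed. Of the 58 genes 46 had a log2 ratio above 0 (79.3%, against 48.9% of all 11032 genes tested), and the median was 0.14, against -0.01 over all genes. METTL1 was highest, at 0.78 on the log2(value + 1) scale (a ratio of values of 1.86), followed by NSUN6 (0.51), WDR4 (0.44), LCMT2 (0.40), YRDC (0.37), PUS10, TRMT61A, TRIT1 and ADAT2. METTL6 (-0.37) and CDKAL1 (-0.36) were lowest.

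No gene of the 58 passed 2-fold in that comparison, a size that 0.499% of all genes passed. The 9 genes at least 0.32 higher stand against 5.82% of all genes and the 2 at least 0.32 lower against 8.35%. In this and the later comparisons, shares over all genes are those at the minimum of 1 unit. None were computed for a minimum of 10 units, so counts at 10 units cannot be set against them. At a minimum of 10 units 24 of the genes could be compared, of which 3 were at least 0.32 higher (WDR4, YRDC and TRIT1) and 0 lower. From the top, these better covered mRNAs ran WDR4 (0.44), YRDC (0.37), TRIT1 (0.36), DUS2 (0.31), PUS1 (0.29) and METTL2B (0.27), and from the bottom TRMT10C (-0.21), ADAT1 (-0.10), FTSJ1 (-0.05), TRMT112 (0.04), QTRT2 (0.04) and TRMT11 (0.08). The span of 95% of all genes at 5 to 50 units was -0.44 to 0.41, and METTL1, NSUN6 and WDR4 lay above it out of 43 of the genes in that range. The 4 genes NSUN2, NSUN3, NSUN6 and TRDMT1 (NSUN2 at 0.17), all 4 dihydrouridine synthases and all 6 wobble uridine and queuosine genes lay above 0. Some did so by little, such as QTRT2. Other roles were mixed, with 9 of 14 methyltransferases outside the anticodon loop above 0. The METTL2A, METTL2B, METTL6 and METTL8 group had 2 of 4 above 0, FTSJ1 and THADA 1 of 2. The pseudouridine synthases had 6 of 7, the deaminases 2 of 3 and the genes for the purine beside the anticodon 9 of 11. The mitochondrial set was taken as TRMT2B, TRMT61B, TRMT10C, NSUN3, METTL8, TRUB2, TRMU, GTPBP3, MTO1, CDK5RAP1 and OSGEPL1. The median was 0.17 for the 47 genes outside it and 0.07 for these 11, with 38 and 8 above 0. PUS1, which works in both compartments, was counted outside it, so the medians do not cleanly part cytosolic from mitochondrial enzymes.

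In MT over EV the mRNA differences were smaller and mixed. Of the 58 genes 35 lay above 0, against 48.7% of all genes tested, and the median was 0.03. METTL1 (0.53), PUSL1 (0.47) and OSGEP (0.32) were at least 0.32 higher, against 4.81% of all genes. METTL8 (-0.44), CDKAL1 (-0.35), ADAT1 (-0.35) and THG1L (-0.33) were at least 0.32 lower, against 6.79%. None passed 2-fold, a rule met by 0.29% of all genes. At a minimum of 10 units the counts became 1 higher (PUSL1) and 1 lower (ADAT1) of 20. METTL1 and PUSL1 lay above and METTL8 below the span of 95% of genes at 5 to 50 units, which was -0.40 to 0.37. The highest 6 at that minimum were PUSL1 (0.47), TRMT1 (0.30), QTRT1 (0.22), TRIT1 (0.15), CDK5RAP1 (0.14) and TRMT112 (0.10), and the lowest 6 ADAT1 (-0.35), TRMT10C (-0.26), QTRT2 (-0.18), PUS1 (-0.17), FTSJ1 (-0.11) and TYW3 (-0.06). This comparison shares its EV library with the one above.

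Set directly against MT, the WT library was again the higher. In 46 of 58 genes the log2 ratio was above 0, against 51% of all genes, with a median of 0.14 against 0.00 over all genes. THG1L (0.62), OSGEPL1 (0.48), PUS1 (0.47), TRMT10A (0.40), WDR4 (0.38), NSUN6 and TRMT61A were at least 0.32 higher in WT, against 6.91% of all genes, and PUSL1 (-0.36) was lower, against 7.32%. None passed 2-fold (0.508% of all genes), and at a minimum of 10 units WDR4 and PUS1 were left higher and PUSL1 lower among 24. Of these 24 the 6 highest ratios were those of PUS1 (0.47), WDR4 (0.38), YRDC (0.31), ADAT1 (0.25), TYW3 (0.24) and QTRT2 (0.22), and the 6 lowest those of PUSL1 (-0.36), TRMT1 (-0.13), QTRT1 (-0.10), TRMT112 (-0.06), TRMT10C (0.05) and FTSJ1 (0.06). Over the 3 libraries, WT held the highest mRNA value for 39 of the 58 genes, EV for 10 and MT for 9, while over 11097 genes at 1 FPKM or more in any library WT was highest in 35.5%. EV held the lowest value for 33 (31.3% of all genes), MT for 20 (33.0%) and WT for 5 (35.6%). Since the WT library enters both of its comparisons, these are not separate observations.

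**Figure D3:**
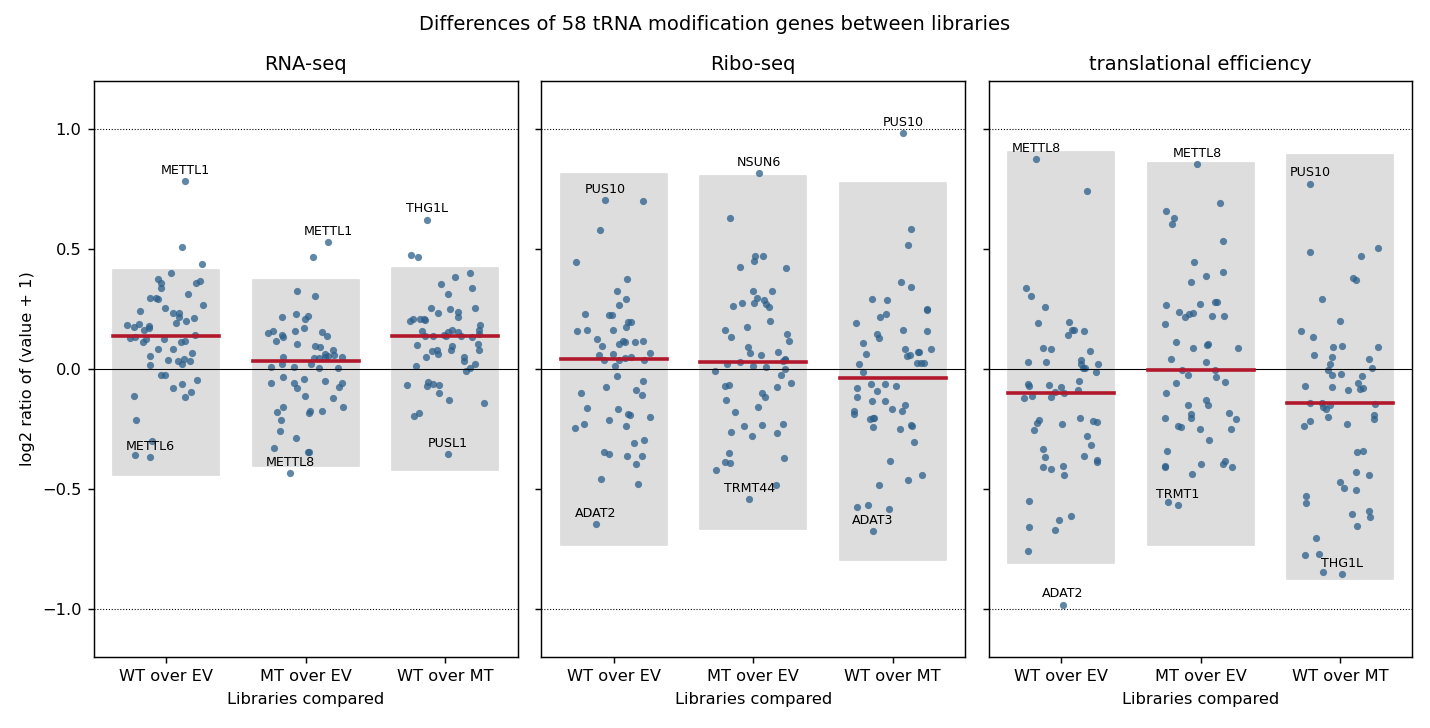
log2 ratios of (value + 1) for the 58 genes in RNA-seq, Ribo-seq and translational efficiency, with 1 point per gene, the median of the genes as a red line and, in grey, the span of 95% of all genes with a mean of 5 to 50 units; dotted lines mark 2-fold. In RNA-seq the median is 0.14 in WT over EV and 0.03 in MT over EV, and no point reaches a dotted line in any panel.

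The Ribo-seq median lay close to that of all genes. Over the 3 libraries WT held the highest footprint value for 21 of the 58 genes (38.3% of all genes). WT held the lowest for 18 (33.6%), EV for 23 (35.3%) and MT for 17 (31.2%). In WT over EV 33 of 58 genes lay above 0, against 53.4% of all 10700 genes tested, and the median of 0.04 stood beside 0.03 over all genes. PUS10 (0.70), NSUN6 (0.70), METTL8 (0.58), OSGEPL1 (0.44), METTL6 and DUS4L were at least 0.32 higher, against 18.1% of all genes. ADAT2 (-0.65), TRMT5 (-0.48), TRMT44 (-0.46), TRMT61A (-0.40), FTSJ1, PUS1, TRMT12 and ADAT3 were lower, against 15.7%. Both shares, 6 and 8 of 58, are below or near those of all genes. None passed 2-fold (3.36% of all genes), and at a minimum of 10 units METTL6 was left higher and FTSJ1 and PUS1 lower among 35. Among these the 6 at the top were METTL6 (0.38), TRIT1 (0.29), TYW3 (0.27), TRMU (0.23), TYW1 (0.23) and DUS2 (0.22), and the 6 at the bottom FTSJ1 (-0.36), PUS1 (-0.36), YRDC (-0.24), MOCS3 (-0.20), TRMT1 (-0.19) and WDR4 (-0.19).

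In MT over EV 9 of the 58 Ribo-seq values were at least 0.32 higher, against 15.5% of all genes, and 7 lower, against 12.6%. NSUN6 (0.82), PUS3 (0.63), TYW3 (0.47), TRMT10A (0.47), METTL2A (0.45) and METTL2B (0.42) were among the higher. TRMT44 (-0.54), TRMT12 (-0.48), CDK5RAP1 (-0.42) and TRMT10C (-0.39) were among the lower. METTL2A, METTL2B, METTL6 and METTL8 had a median of 0.42, the highest of the roles, against 0.01 over all genes. Medians of the other roles ran from -0.24 (FTSJ1 and THADA) to 0.28 (METTL1 and WDR4). The split between METTL2A and METTL2B is uncertain, so their values may not be separate observations. Over all 58 the median was 0.03 and 33 lay above 0 (52.1% of all genes), none passed 2-fold (2.83% of all genes), and 5 higher and 3 lower were left among 32 at a minimum of 10 units. At the top of these 32 stood PUS3 (0.63), TYW3 (0.47), TRMT10A (0.47), METTL2A (0.45), METTL2B (0.42) and METTL1 (0.29), and at the bottom CDK5RAP1 (-0.42), TRMT10C (-0.39), FTSJ1 (-0.35), MOCS3 (-0.27), TRMT1 (-0.27) and PUS1 (-0.18).

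Between WT and MT the Ribo-seq median was -0.04, and 28 of 58 lay above 0, against 51.6% of all genes. PUS10 (0.98), CDK5RAP1 (0.58), OSGEPL1 (0.52), LCMT2 and TRMT10C were at least 0.32 higher in WT, against 16.2% of all genes. ADAT3 (-0.67), PUS3 (-0.58), ADAT2 (-0.58), TRMT13, METTL2A, WDR4 (-0.46), NSUN2 (-0.44) and METTL2B were lower, against 16.4%. None passed 2-fold (3.19% of all genes), and 2 higher and 5 lower were left among 35 at a minimum of 10 units. At that minimum the range ran down from CDK5RAP1 (0.58), TRMT10C (0.34), NSUN3 (0.29), METTL6 (0.29), DUS2 (0.25) and TRMU (0.23), and up from PUS3 (-0.58), METTL2A (-0.48), WDR4 (-0.46), NSUN2 (-0.44), METTL2B (-0.38) and TRMT10A (-0.30). With a pseudocount of 0.1 in place of 1, PUS10 (1.31) and ADAT3 (-1.06) passed 2-fold, both at a few TPM. In none of the 3 Ribo-seq comparisons did any of the genes at 5 to 50 TPM, 46 to 48 in number, lie outside the span of 95% of all genes in that range, which was -0.73 to 0.81 in WT over EV.

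mRNA and footprint differences were also set side by side per gene. Of the 9 mRNAs at least 0.32 higher in WT over EV, NSUN6 and PUS10 were also at least 0.32 higher in Ribo-seq, while TRMT61A and ADAT2 were at least 0.32 lower. Among all 589 genes with that mRNA difference and a value in both assays, 19.2% were likewise higher in Ribo-seq and 21.6% lower, shares near the 2 and 2 of 9. For WT over MT, 1 of 7 (OSGEPL1) was at least 0.32 higher in both assays, against 11.8% of 680 genes, and 1 of 7 (WDR4) was at least 0.32 lower in Ribo-seq, against 31.3%. For MT over EV, 0 of 3 were at least 0.32 higher in Ribo-seq and 0 of 3 lower, against 21.1% and 18.8% of 483 genes. All 3 lay above 0 in Ribo-seq, against 51.1%. In WT over EV it was 5 of 9, against 45.8%, and in WT over MT 1 of 7, against 35.9%. Among the lower mRNAs, 1 of 2 in WT over EV lay below 0 in Ribo-seq, against 47.9%. For MT over EV it was 1 of 4, against 45.0%, and for WT over MT 0 of 1, against 42.2%. Of the mRNAs at least 0.32 lower, 1 of 2 in WT over EV (METTL6) was at least 0.32 higher in Ribo-seq, against 24.9% of 791 genes. In MT over EV it was 1 of 4 (METTL8), against 21.4% of 649 genes. In both comparisons 0 were at least 0.32 lower in both assays, against 19.7% and 14.8%.

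Translational efficiency, here the log2 ratio of footprints less that of mRNA, was lower in WT for most of the genes. In WT over EV 21 of 58 lay above 0, against 53.7% of all genes, and the median was -0.10 against 0.04 over all genes. ADAT2 (-0.98), TRMT61A (-0.76), METTL1 (-0.67), PUS1 (-0.66), WDR4 (-0.63) and YRDC (-0.61) were lowest of the 16 genes at least 0.32 lower, against 18.4% of all genes. METTL8 (0.88), METTL6 (0.74) and PUS10 were the 3 that were higher, against 22.5%. The same mRNA values enter this ratio with the opposite sign, so it does not add independent evidence to the mRNA result, and it assumes that equal labels in both assays mean equal cells. None passed 2-fold (4.21% of all genes). ADAT2 did so at -1.38 with a pseudocount of 0.1, -1.02 when ratios were centred on all genes and -1.12 when rescaled without mitochondrially encoded and histone genes. At a minimum of 10 units in both assays 5 lower and 0 higher were left among 22. Among the 37 genes at 10 units or more in any library compared, the 6 uppermost were METTL6 (0.74), TRMU (0.16), TRMT10C (0.16), NSUN3 (0.14), TYW3 (0.09) and TYW1 (0.08), and the 6 lowermost METTL1 (-0.67), PUS1 (-0.66), WDR4 (-0.63), YRDC (-0.61), TRMT1 (-0.37) and MOCS3 (-0.36).

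In MT over EV the ratios were balanced, with 28 above 0 (52% of all genes) and 30 below, a median of 0.00, and 10 genes at least 0.32 higher and 10 lower, against 19.6% and 15.1% of all genes. METTL8 (0.85), PUS3 (0.69), NSUN6 (0.66), TRMT10A (0.63) and THG1L (0.60) were highest, and TRMT1 (-0.57) and CDK5RAP1 (-0.55) lowest. None passed 2-fold (3.51% of all genes), and 2 higher and 3 lower were left among 18 at a minimum of 10 units. Of 34 genes with 10 units in any library, uppermost were PUS3 (0.69), TRMT10A (0.63), THG1L (0.60), TYW3 (0.53), METTL2A (0.40) and METTL2B (0.36), and lowermost TRMT1 (-0.57), CDK5RAP1 (-0.55), MOCS3 (-0.41), PUSL1 (-0.40), OSGEP (-0.30) and METTL1 (-0.24). In WT over MT 18 of 58 lay above 0, against 50.8% of all genes, with a median of -0.14 against 0.01 over all genes, and 18 were at least 0.32 lower (20.3% of all genes) against 6 higher (20.7%). THG1L (-0.86), WDR4 (-0.85), ADAT2, ADAT3 and TRMT10A (-0.70) were lowest, and PUS10 (0.77) and CDK5RAP1 (0.51) highest. None passed 2-fold (4.82% of all genes) except with a pseudocount of 0.1, which took ADAT2 (-1.06), ADAT3 (-1.21) and PUS10 (1.03) past it, and 6 lower and 2 higher were left among 22 at a minimum of 10 units. By the same measure of 10 units in any library, 37 genes could be ranked, with CDK5RAP1 (0.51), NSUN3 (0.49), METTL6 (0.47), PUSL1 (0.38), TRMU (0.37) and TRMT10C (0.29) at one end and THG1L (-0.86), WDR4 (-0.85), TRMT10A (-0.70), PUS1 (-0.65), METTL2A (-0.62) and NSUN2 (-0.60) at the other. No gene at 5 to 50 units in both assays lay outside the span of 95% of such genes in any of the 3 comparisons.

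Within a label, the footprint value divided by the mRNA value, both scaled to the same total over named genes, differed far more between genes than between libraries. In EV the median ratio of the 58 genes was 0.673, against 0.518 over the 10068 genes at 1 unit or more in both assays, with 41 of the 58 above that level. In WT it was 0.671 (40 of 57 above) and in MT 0.709 (42 of 58 above). By the mean of the log2 ratio over the 3 labels, TRMT112 was highest, at 5.38, 5.37 and 5.68, followed by TRUB2 (2.34, 2.11 and 2.35), MOCS3 (2.72, 1.94 and 1.89) and METTL1 (2.75, 1.57 and 2.17). By the same mean DUS1L was lowest, at 0.0513, 0.0425 and 0.0483, followed by TRMT44 (0.364, 0.241 and 0.238), TRMT2B (0.326, 0.229 and 0.283) and TRMT13 (0.284, 0.231 and 0.351), although in EV alone METTL8 (0.278) was below all but DUS1L. TRMT112 and DUS1L were the only 2 of the genes outside the span that held 95% of all genes in EV, 0.0734 to 3.64, and both lay outside it in WT and MT as well. Why DUS1L has so few footprints in the table was not tested.

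**Figure D4:**
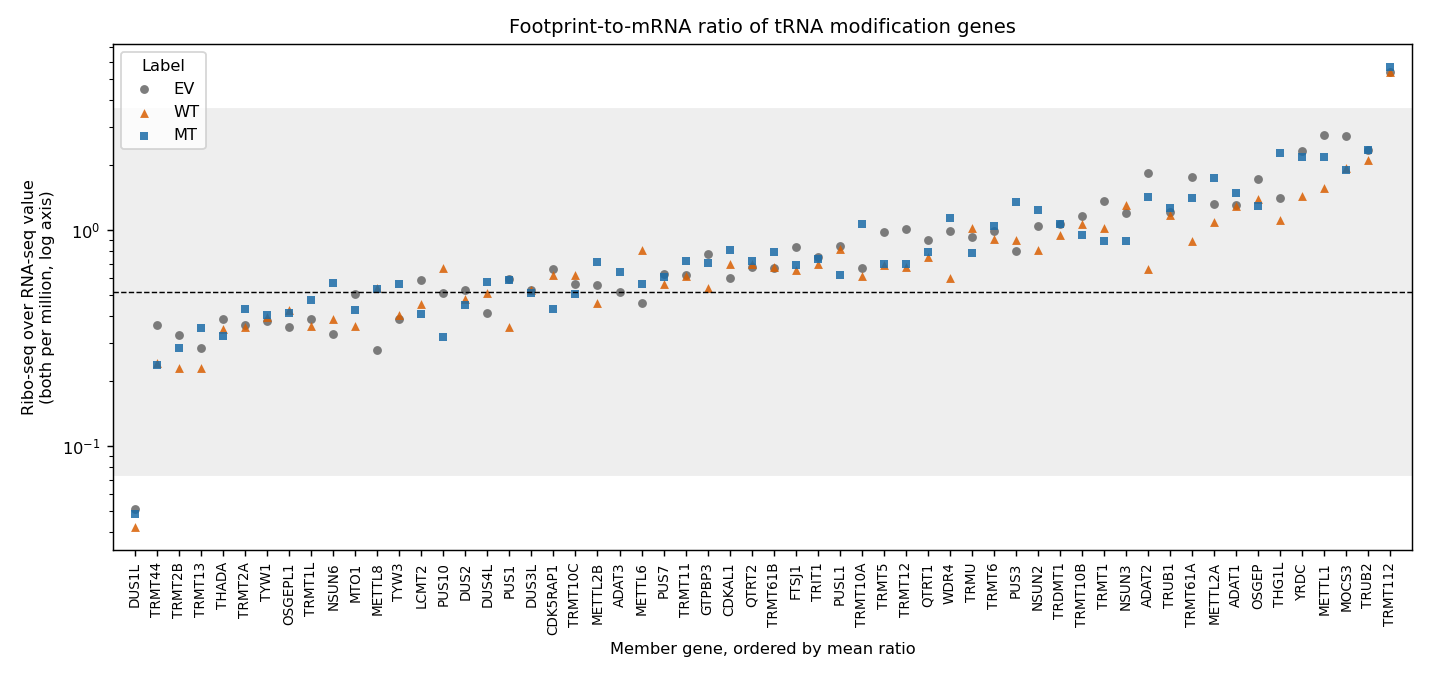
Footprint value divided by mRNA value for each of the 58 genes on a log axis, ordered by the mean over labels, with 1 point per label (circle EV, triangle WT, square MT). The dashed line is the median of all genes in EV, 0.518, and the grey span holds 95% of them; DUS1L lies below it and TRMT112 above it in all 3 labels.

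Other genes of the pathway had mRNA medians nearer to 0. Of 39 further tRNA modification genes (Elongator, wobble thiolation, partners of the enzymes above and others) 38 were tested. In WT over EV 19 of them (50%) lay above 0, with a median of 0.00, 2 at least 0.32 higher and 1 lower. Of 44 genes of tRNA transcription, processing and export 43 were tested. Of these 32 (74.4%) lay above 0, beside 79.3% of the 58 genes and 48.9% of all genes. Their median was 0.07, with 5 at least 0.32 higher and none lower. Over all genes 5.82% were at least 0.32 higher and 8.35% lower. Whether these lists differ from the 58 genes was not tested. In MT over EV their mRNA medians were -0.01 and 0.01, and in WT over MT 0.04 and 0.08. In WT over MT 25 of 38 and 30 of 43 mRNAs of the lists lay above 0, against 51% of all genes. In Ribo-seq the medians were 0.03 and 0.08 in WT over EV, -0.04 and 0.02 in MT over EV, and 0.03 and 0.04 in WT over MT. Past 2-fold were KTI12, an Elongator-associated protein, in MT over EV (2.81, 3.33 and 6.63 TPM) and TRMT9B in MT over EV and WT over MT (0.243, 0.0780 and 2.14 TPM), all in Ribo-seq or, for TRMT9B, in translational efficiency too. In the second list none passed it in any comparison, and the members with the highest mean mRNA level over the 3 libraries, SSB, DDX1 and XPOT, stood at 137, 133 and 137 FPKM, 94.3, 95.1 and 92.4 FPKM and 68.97, 70.8 and 54.7 FPKM.

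Neighbouring genes limit some values. In the RefSeq gene list 57 of the 58 genes were found, and 18 of them overlap another protein-coding gene, among them TRMT112 with ESRRA and PRDX5, PUS10 with PEX13, ADAT3 with SCAMP4, PUSL1 with INTS11, YRDC with C1orf122, METTL6 with EAF1 and METTL8 with DCAF17. Whether counting used strand is not given, so reads of such partners may not be told apart.

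Promoters were searched for a motif that the choice of genes did not use, CACGTG, the E-box letters read by MYC and related factors. It reads the same on both strands and was the only motif searched. RefSeq promoter windows, 250 bases before to 50 after the start on GRCh38.p14, were found for 49 of the 58 genes, and 5 of the 49 held it (10.2%), against 12.8% of 9494 genes that reached 1 unit in any library and 8.77% of all 27305 symbols. The windows around the matches, 30 bases 5′ to 3′ on the gene's strand with the motif in capitals, are shown because both subunits of the T loop adenosine methyltransferase, TRMT6 and TRMT61A, are among the 5.
PUS7, chr7:105522226-105522255, minus strand: gtcgctgcgccgCACGTGtgcgagcccggc
QTRT1, chr19:10701382-10701411, plus strand: ggatcgcgtggtCACGTGacagcggccaac
QTRT1, chr19:10701428-10701457, plus strand: tgtggtacggccCACGTGgttccgacagtc
TRMT6, chr20:5950512-5950541, minus strand: agcggcgtgcaaCACGTGggggcggtgccg
TRMT61A, chr14:103529216-103529245, plus strand: gcgtcgcggaggCACGTGtggagccccggc
TRUB2, chr9:128322196-128322225, minus strand: ccaaaacaaaatCACGTGacctattcacct
The matches lie past the start site, apart from the first of the pair in QTRT1, which begins 45 bases before it. The mRNA log2 ratios of the 5 genes in WT over EV were 0.23 for PUS7, 0.12 for QTRT1, 0.13 for TRMT6, 0.36 for TRMT61A and 0.02 for TRUB2. These 5 are part of the 58 genes, which ran from -0.37 to 0.78 with 79.3% above 0. Genes with and without the motif were not compared.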

How the data were processed

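The 58 genes and the lists beside them were chosen with earlier results of these data known. The labels' protocols describe TRIzol extraction, cycloheximide to arrest ribosomes, digestion by RNase I, depletion of ribosomal RNA by antisense probes, and libraries from NEBNext kits. How reads were aligned, counted and annotated is not stated there. The submitters' processing notes name human genome build hg18, so the table's rows get no coordinates. The table of the authors has 20307 rows. Its deposited RNA-seq values have no stated unit and were read as FPKM, since each column adds up to 459938 to 469859, although TPM of a larger gene set could look alike. Its deposited Ribo-seq values are TPM, with columns that add up to 1000000. Neither unit keeps read counts, so no count test was run and no counting error could be given.

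Rows without a gene name (605, 0.153% to 0.564% of column sums) and 7 symbols on rows with differing values were left out, which left 19669 genes. Ratios were computed on log2(value + 1) in Python 3.11.15 with pandas 2.3.3 and numpy 2.4.6, with no test. How often differences of the sizes given arise from scatter between libraries was not tested. Levels are printed for all 58 genes. Ratios are printed for those past 2-fold, for the 6 highest and 6 lowest per comparison among genes at 10 units or more, for the 4 highest and 4 lowest footprint-to-mRNA ratios, and, added after their values were seen, for other genes past the smaller rule, for NSUN2 and for the genes with the promoter motif. Alternatives were a pseudocount of 0.1, a minimum of 10 units or none, centring on all genes, and rescaling without mitochondrially encoded and replication-dependent histone genes.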

Additional observations from a re-analysis of the deposited data

How the results depend on the processing

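No paired analysis was possible because each label has 1 library per assay. Of 180 recomputed values 156 stayed within the limits set (a count within 1.5 times, a median of the same sign within 0.1), including all 36 with no minimum. A minimum of 10 units, under which 18 to 35 of the genes are left, lowered most counts at the smaller rule (0.32). Fewer genes were then compared, but in some comparisons the share fell too. In Ribo-seq WT over EV it went from 6 of 58 to 1 of 35 higher, whereas in MT over EV 9 of 58 became 5 of 32. The cause was not tested. Shares over all genes at that minimum were not computed, so whether they shift likewise is unknown. For mRNA the counts higher and lower became 3 and 0 in WT over EV and 1 and 1 in MT over EV, and 2 were higher in WT over MT. For Ribo-seq they became 1 and 2, 5 and 3, and 2 and 5, and for translational efficiency 0 and 5, 2 and 3, and 2 and 6, in the same order of comparisons. The count past 2-fold, 0 in every comparison as deposited, became 2 in Ribo-seq WT over MT, 1 in translational efficiency WT over EV and 3 in WT over MT with a pseudocount of 0.1, the cause of which is the larger weight of low values. After rescaling without mitochondrially encoded and histone genes it became 1 in Ribo-seq WT over MT and 1 in translational efficiency WT over EV. It became 1 in the latter after centring, which takes off the median of all genes. The rescaling also brought the RNA-seq columns up to the same total as the Ribo-seq columns, so the added 1 weighed less for mRNA. How far each step moved these counts was not tested. The translational efficiency median of MT over EV went from -0.0033 to 0.00359 after that rescaling, a reversal at a value near 0, and the cause was not tested. The mRNA median of WT over EV ranged from 0.14 to 0.16 and that of WT over MT from 0.13 to 0.15 over all settings. Values of a few units may rest on few reads, and counting error could not be computed without read totals.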
